A study of Rattus norvegicus with 4 samples.

Results

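The pancreas of iron-deficient (FeD) rats was compared with that of iron-adequate (FeA) rats on 2 dye-swapped two-colour arrays that covered 30367 gene probes. Members of the comparison were probes well above background on both arrays in at least 1 of the pools (17516 probes, 57.7% of those on the array) whose ratio had the same sign on both arrays, which held for 8106 probes (46.3% of those that passed). They represented 7661 of 26485 genes, and 4336 of the probes were higher and 3770 were lower in FeD. Weanling male Sprague-Dawley rats had been fed purified AIN-93G diets of 5 ppm iron (FeD) or 35 ppm iron (FeA) for 3 weeks and were fasted overnight before the pancreas was taken. No genetic change was made in these animals. RNA from 6 rats per diet was combined into 1 pool, so that a high level in 1 rat can raise a pool, and both arrays held the same 2 pools. The spread between the arrays is therefore technical (dye and hybridisation), the variation among rats was not measured, and the diets could not be tested. In the same series an iron-overloaded (FeO) pool was compared with the same FeA pool, and FeO values are given here only side by side.

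Iron enters most cells through the transferrin receptor, is stored in ferritin and leaves through ferroportin, and iron regulatory proteins stabilise the transferrin receptor transcript when cellular iron is low. Iron is a cofactor of heme proteins, iron-sulfur clusters and many oxygenases, including the lipoxygenases. The exocrine pancreas makes digestive enzymes in acinar cells, and its islets secrete insulin, a process that is known to be sensitive to both shortage and excess of iron.

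The tissue label was checked against genes of the acinar and islet cells. Of the 24 digestive enzyme and granule genes on the array 23 passed the background filter, and their summed signal was 8551145 and 7910939 intensity units in FeD on arrays 1 and 2 and 7175856 and 7904638 in FeA. Ins1 (insulin) gave 74386 and 77893 units in FeD and 111385 and 95761 in FeA. Signals of both channels are given after loess and between-array normalization, and ratios are the log2 of FeD over FeA.

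The spread between arrays was of nearly the same size as the spread between genes. The mean ratio of a probe had an SD of 0.22 over the probes that passed, and the difference of the arrays from their mean had an SD of 0.18 with a median size of 0.11. Of all genes, 98% had a mean ratio between -0.49 and 0.60, and the median was 0.01. Large ratios were different. A mean past 1 on the log2 scale (2-fold) was found for 64 probes, whereas the difference from the mean was past 1 for 1 probe, and at 1.5-fold the counts were 322 and 85. Small ratios of single genes below that size are therefore given with both arrays.

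At 2-fold with the same sign on both arrays, 18 of 15729 genes were higher in FeD (0.114%) and 38 were lower (0.242%), so that 32.1% of the called genes were higher. With the scanner software's processed signals the counts were 137 and 143 (48.9% higher), and on array 2 alone, without array 1, they were 81 and 39. At 1.5-fold the counts were 170 higher (1.08%) and 107 lower (0.68%), and at 4-fold they were 3 (0.0191%) and 13 (0.0826%). Over all genes that passed, 7371 (46.9%) had a mean of the same sign on both arrays. Among smaller changes, 910 genes were higher and 520 lower by a log2 ratio of 0.25 to 0.5, and 251 were higher and 109 lower by 0.5 to 1. On both sides of the 2-fold limit lay Cd247 at 1.00 and Cd74 just below 1.00 (higher), and Clca1 just past -1 and Clca4 at -0.99 (lower). The plot of both arrays shows the called genes along the diagonal, with Phgr1, a small protein of the gut epithelium, as the called gene farthest from it (-2.18 on array 1 and -0.14 on array 2, with FeD well above background on 1 of them).

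**Figure D1:**
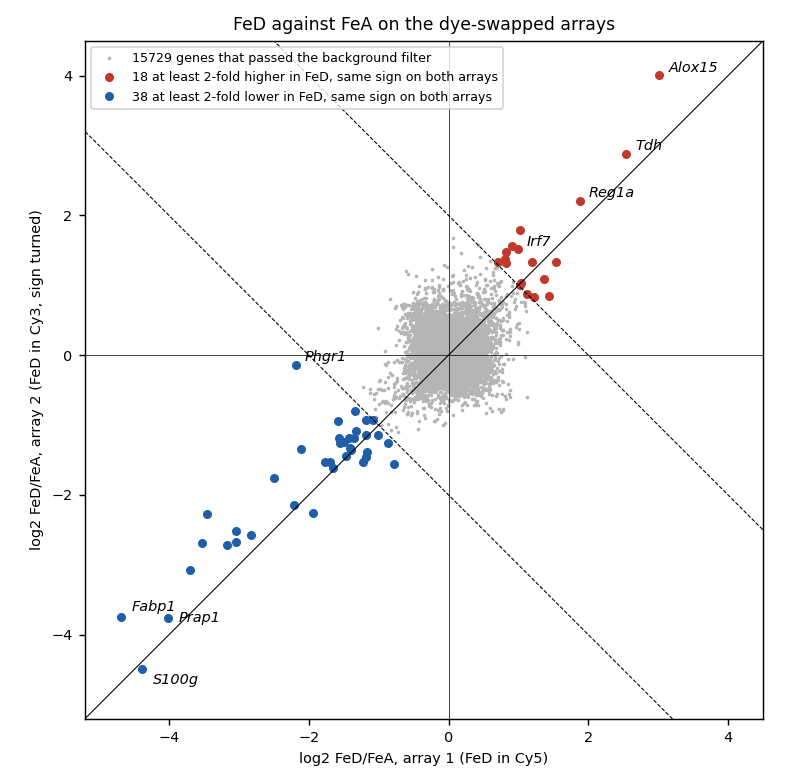
Log2 ratio of FeD over FeA on array 1 (x axis) and array 2 (y axis) for the 15729 genes that passed the background filter. Red points are the 18 genes at least 2-fold higher and blue points the 38 at least 2-fold lower, the solid line marks equal ratios and the dashed lines a mean of 1 and -1; Alox15, Tdh and Reg1a are past 4-fold on the higher side.

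The largest ratio belonged to Alox15, arachidonate 15-lipoxygenase, a non-heme iron enzyme that oxygenates polyunsaturated fatty acids. Its signal was 1408 and 2537 units in FeD and 174 and 158 in FeA on arrays 1 and 2. The log2 ratio was 3.02 on array 1 and 4.00 on array 2. In FeO against the same FeA pool the ratios of Alox15 were 0.11 and 1.31. In the list of eicosanoid synthesis, which includes Alox15, 12 of 19 genes passed the filter, and their median was 0.00 beside 0.01 over all genes. With Alox15 counted, 4 were higher and 3 lower on both arrays (25.2% and 21.7% of all genes). No member other than Alox15 was past 1.5-fold, beside 1.08% of all genes higher and 0.68% lower by that size. Pla2g2a, a secreted phospholipase, was at -0.59 and -0.53, and Ephx2, the soluble epoxide hydrolase, was at least 1.26-fold higher. The lipoxygenases Alox5, Alox12, Alox12b and Aloxe3, the 5-lipoxygenase activating protein Alox5ap and the cyclooxygenase Ptgs2 were not above the filter. Alox15 is also known from macrophages and eosinophils, so the myeloid markers stand beside it: of 24 macrophage, granulocyte and mast cell genes on the array 18 passed, 12 were higher and 3 lower on both arrays (25.2% and 21.7% of all genes), and their summed signal was 24722 and 21985 units in FeD and 16040 and 16704 in FeA. The largest mean ratios of this list were those of C1qa and C1qb, complement subunits of macrophages, at 0.51 and 0.71 and at 0.44 and 0.76. Cd68 was at 0.17 and 0.25 and Cd163 at 0.17 and 0.27, whereas Csf1r (0.41 and -0.13) and Marco (-0.25 and 0.07) differed in sign between the arrays. Adgre1, which encodes the macrophage marker F4/80, was at -0.14 and -0.04, and Mpo, S100a8, S100a9, Fcer1a, Ms4a2 and Hdc did not pass. The part of these cells in the Alox15 ratio was not tested, and in bulk RNA such as this, more cells of a type and more RNA per cell cannot be told apart.

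Tdh, L-threonine dehydrogenase, the mitochondrial enzyme that starts the breakdown of threonine to glycine and acetyl-CoA, had the next largest ratio. Its signal was 1400 and 1282 units in FeD and 240 and 174 in FeA, and the ratio was 2.55 and 2.88. Gcat, the enzyme of the following step, was at 0.07 and 0.30. In the list of serine, glycine, threonine and amino acid supply, which includes Tdh, 18 of 20 genes passed. On both arrays 7 were higher and 5 lower (25.2% and 21.7% of all genes), and the median was 0.00. Cth, cystathionine gamma-lyase, was at 0.30 and 1.1, and Slc7a11, the cystine and glutamate exchanger, was at 0.68 and 0.42. Slc7a3, a cationic amino acid transporter, was at -0.63 and -0.47, with the FeD signal well above background on 1 array. Gpt, alanine aminotransferase, was 2-fold higher as well, at 0.82 and 1.32, and its probe was printed in 10 spots with an SD between spots of 0.11 and 0.13. In FeO the ratios were 1.43 and 1.88 for Tdh and 1.22 and 1.75 for Gpt.

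The regenerating (Reg) family encodes secreted C-type lectins that acinar cells release under stress. Reg1a gave 50375 and 60645 units in FeD and 13710 and 13113 in FeA, a ratio of 1.88 and 2.21. Reg3a was at 0.93 and 1.05 and Reg3b at 0.74 and 1.04, each below 2-fold in the mean. The remaining members lay on the other side. Reg4, a goblet and endocrine cell member of the gut, was at least 1.94-fold lower, and Reg3g was at least 1.39-fold lower. These are bounds because FeD was too dim on each array to count as well above background: the mean FeA signal was set against the higher of the lowest signal that counts as well above background and the FeD signal of the probe itself. In FeO the mean ratios were 4.20 for Reg1a, 4.62 for Reg3a and 4.12 for Reg3b, in each case above the FeD value.

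**Figure D2:**
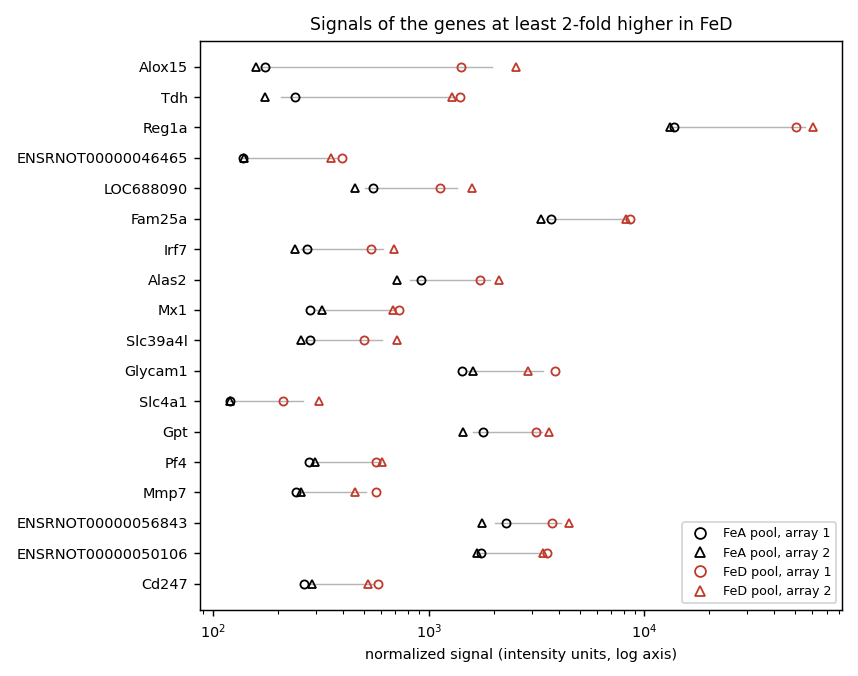
Normalized signals (log axis, intensity units) of the 18 genes at least 2-fold higher in FeD, for the FeA pool (black) and the FeD pool (red) on array 1 (circles) and array 2 (triangles), each the mean over the probes of a gene that passed. For every gene both FeD signals lie to the right of both FeA signals. This is no separate result, because the genes were chosen for a higher FeD ratio on both arrays. Grey lines join the pool means.

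Iron genes had small ratios. Of 25 genes of iron uptake, storage and export on the array 23 passed. None was past 2-fold, beside 0.114% of all genes higher and 0.242% lower by that size. On both arrays 5 were higher and 7 lower (25.2% and 21.7% of all genes), 11 had opposite signs, and the median was 0.01. It lay between -0.03 and 0.03 under the alternatives of processing. Tfrc, the transferrin receptor, gave 611 and 623 units in FeD and 493 and 456 in FeA. Its FeD signals were the higher on both arrays, at a ratio of 0.31 and 0.45, and a further Tfrc probe was not well above background in either pool. Slc11a2 (DMT1), which imports ferrous iron, was at -0.15 and -0.60, and its probes differed, at -0.18 and -0.17 for the first and -0.13 and -1.02 for the second. Slc40a1 (ferroportin, the iron exporter) was at -0.28 and -0.39. Cybrd1, a ferric reductase of the gut brush border, was at -0.45 and -0.80, and its FeD signal was well above background on 1 of the arrays. Slc39a14 (ZIP14), an importer of non-transferrin-bound iron, was at -0.37 and 0.15, Heph (the ferroxidase hephaestin) at 0.00 and -0.20, Hfe (the hemochromatosis protein) at 0.01 and -0.15 and Hamp (hepcidin, the iron hormone) at 0.30 and 0.13, and Tfr2 (transferrin receptor 2) did not pass. The ferritin subunits Fth1 and Ftl1 were at 0.07 and -0.05 and at 0.18 and 0.19. Lcn2, which binds iron-carrying siderophores and is secreted in inflammation, had the largest ratio of the list at 0.52 and 0.80. In FeO the mean ratio of Tfrc was -0.58 and that of Lcn2 was 1.15.

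The lists of iron-sulfur cluster, respiratory chain and dioxygenase genes and of hypoxia-induced genes held no call. None of 30 iron-sulfur cluster and respiratory chain genes was past 1.5-fold, beside 1.08% of all genes higher and 0.68% lower by that size. On both arrays 3 were higher and 11 lower (25.2% and 21.7% of all genes), with a median of -0.06. Examples were Cycs (cytochrome c) at -0.21 and -0.30 and Fdx1 (ferredoxin) at 0.29 and 0.29. None of 17 dioxygenases that use iron and 2-oxoglutarate and none of 23 hypoxia-induced genes was past 1.5-fold, with medians of 0.00 and 0.04. The shares over all genes are small, so a count of none says little about a list of this length. In the hypoxia list 7 were higher and 4 lower on both arrays (25.2% and 21.7% of all genes), and 12 had opposite signs. Its largest mean ratios were those of Ddit4, an inhibitor of mTORC1 signalling (0.25 and 0.73), and Pfkfb3, a regulator of glycolysis (0.59 and 0.36). Adm (adrenomedullin) followed at 0.55 and 0.07. The lowest mean was that of P4ha1, which is also in the dioxygenase list, at -0.23 and -0.11, and Ldha was at -0.19 and -0.10.

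Erythroid genes had larger ratios. Alas2, the aminolevulinate synthase of red cell precursors, gave 1724 and 2115 units in FeD and 921 and 715 in FeA, a ratio of 0.91 and 1.57. The other 8 heme synthesis genes were below 1.5-fold, a size reached by 1.08% (higher) and 0.68% (lower) of all genes. Among them were Alas1, the form found in all tissues, at 0.07 and -0.15, and Ppox at -0.34 and -0.23. Slc4a1 (band 3, the anion exchanger of red cells) was at 0.81 and 1.38, from 210 and 311 units in FeD and 120 and 119 in FeA. All 5 of the red cell markers that passed were higher on both arrays (25.2% of all genes), and Epb42 did not pass. Their median was 0.57, with summed signals of 148858 and 156915 units in FeD and 111245 and 116511 in FeA. Hba-a1 (alpha globin) was at 0.48 and 0.74, Ahsp (the alpha globin chaperone) at 0.69 and 0.45 and Hbb (beta globin) at 0.01 and 0.59. A probe named Hba-a3 ran the other way, at -1.13 and -0.48, and globin copies can share probe sequence. Pf4, a chemokine of platelets, was at 1.04 and 1.04 on a probe of 10 spots.

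Lymphocyte genes formed the list with the most members past 1.5-fold on the higher side. All 23 lymphocyte and lymph node markers on the array passed, 10 were at least 1.5-fold higher beside 1.08% of all genes, and 21 were higher and none lower on both arrays, beside 25.2% and 21.7%. The background criterion was met in both pools by 18 of the 23, of which 10 were at least 1.5-fold higher and 17 were higher on both arrays. The median of all 23 was 0.52, and the summed signal was 16003 and 15486 units in FeD and 9421 and 9118 in FeA. Glycam1, the L-selectin ligand of high endothelial venules in lymph nodes, gave 3863 and 2894 units in FeD and 1424 and 1602 in FeA (1.44 and 0.85). T cell genes were higher on both arrays: Cd3g, a chain of the T cell receptor complex, at 0.95 and 0.80, Zap70, its signalling kinase, at 0.69 and 0.63, and Cd247, its zeta chain, which is not in the list, at 1.13 and 0.87. The B cell receptor subunit Cd79b was at 0.67 and 1.25. The chemokines Ccl19 and Ccl21, which guide lymphocytes into lymph nodes, were at 0.83 and 0.88 and at 0.51 and 0.95. Cd4 was at -0.11 and 0.35. The same genes in FeO against the same FeA pool had mean ratios of -2.75 (Glycam1), -1.18 (Cd3g), -0.87 (Zap70), -0.89 (Cd247), -0.97 (Cd79b), -0.98 (Ccl19) and -0.99 (Ccl21), and 0.98 for Cxcl13, the B cell chemokine, which was at 0.61 and 0.63 in FeD.

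Interferon-stimulated genes encode antiviral and antigen-processing proteins and carry a shared response element (ISRE) in many of their promoters. Because 16 members were higher and none was lower on both arrays, the RefSeq promoters (build GRCr8) of 2 members past 2-fold, Irf7 (the transcription factor that amplifies type I interferon) and Mx1 (an antiviral GTPase), and of 2 members between 1.5-fold and 2-fold, Rsad2 (viperin) and Bst2 (tetherin), are shown as the 250 bases before the gene start on the strand of the gene. Capitals mark the letters GAAANNGAAA, the core of the ISRE, read on either strand.
Irf7: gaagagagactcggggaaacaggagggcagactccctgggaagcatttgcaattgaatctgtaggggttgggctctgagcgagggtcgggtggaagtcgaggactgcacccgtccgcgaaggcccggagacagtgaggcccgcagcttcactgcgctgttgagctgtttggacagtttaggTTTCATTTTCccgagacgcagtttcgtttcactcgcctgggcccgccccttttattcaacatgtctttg
Mx1: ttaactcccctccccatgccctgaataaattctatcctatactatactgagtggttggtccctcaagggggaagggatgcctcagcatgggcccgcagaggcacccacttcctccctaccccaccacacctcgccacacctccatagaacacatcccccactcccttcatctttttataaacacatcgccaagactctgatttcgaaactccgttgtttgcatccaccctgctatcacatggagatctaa
Rsad2: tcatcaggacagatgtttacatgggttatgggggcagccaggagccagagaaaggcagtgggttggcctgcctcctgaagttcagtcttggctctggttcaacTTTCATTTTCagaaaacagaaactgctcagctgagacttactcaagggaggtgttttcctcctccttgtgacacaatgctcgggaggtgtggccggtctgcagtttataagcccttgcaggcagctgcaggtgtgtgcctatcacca
Bst2: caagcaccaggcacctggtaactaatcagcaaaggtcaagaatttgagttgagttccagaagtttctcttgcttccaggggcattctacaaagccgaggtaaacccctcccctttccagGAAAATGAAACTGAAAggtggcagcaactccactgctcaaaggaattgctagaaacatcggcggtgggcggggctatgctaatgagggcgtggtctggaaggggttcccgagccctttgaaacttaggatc
The windows are chr1:205800024-205800273 for Irf7, chr11:50294607-50294856 for Mx1, chr6:48788121-48788370 for Rsad2 and chr16:18254968-18255217 for Bst2, all on the minus strand. The match begins 69 bases before the start in Irf7 and 147 in Rsad2, Bst2 has overlapping matches that begin 131 and 125 bases before it, and the Mx1 window has none. Of the 22 list genes on the array 15 had a promoter entry, and 11 of these windows (73.3%) held the letters, compared with 1140 of 33469 windows of that length (3.41%). Among the list genes that passed the background filter 10 of 13 windows held them, and the window of Psmb8, also between 1.5-fold and 2-fold, did not. Because the list was made of interferon-stimulated genes, these shares describe the list and are not a result of the diets. A match describes the letters and is not a measured binding site.

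Of these 22 genes 18 passed the background filter, and 16 were higher and none lower on both arrays, beside 25.2% and 21.7% of all genes. All 16 were measured above background in both pools. The median was 0.44, and 6 were at least 1.5-fold higher beside 1.08% of all genes. Irf7 gave 540 and 687 units in FeD and 272 and 240 in FeA, a ratio of 0.99 and 1.52. Mx1 gave 726 and 684 in FeD and 282 and 320 in FeA, a ratio of 1.37 and 1.1. Both genes were called as higher on both arrays, so the side of their FeD signals is not a separate result. Rsad2 was at 1.04 and 0.76, Isg15, a ubiquitin-like antiviral modifier, at 1.11 and 0.63, Psmb8, an immunoproteasome subunit, at 0.72 and 0.98, and Bst2 at 0.99 and 0.44. Smaller values were found for Gbp2, an interferon-induced GTPase (0.33 and 0.43), and Ifit2 was at -0.06 and 0.07. Immune cells express many of these genes, and the lymphocyte markers above were also higher; their part in these ratios was not tested. In FeO the mean ratios were 0.47 for Irf7, -0.31 for Mx1 and 0.24 for Rsad2.

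MHC genes present antigens to T cells. Of 14 MHC genes that passed 8 were higher and 1 lower on both arrays, beside 25.2% and 21.7% of all genes, 4 were at least 1.5-fold higher, beside 1.08%, and the median was 0.34. The other 5 had opposite signs on the arrays. The largest mean ratios were those of Cd74, the invariant chain of MHC class II (0.42 and 1.58), and RT1-Da, a class II alpha chain (1.08 and 0.76). Other class II genes had probes that disagreed. The 2 probes of RT1-Bb had means of -0.91 and 1.27, and the 2 of RT1-Db1 had means of -0.32 and 0.40. B2m, the light chain of class I, was at 0.36 and 0.51. RT1-CE16, a class I gene, ran the other way, at -0.60 and -0.24, and MHC genes of this family are near-identical, so that probes can share signal. All 7 endothelial markers that passed had a positive mean, with 5 higher on both arrays (25.2% of all genes) and a median of 0.27.

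**Figure D3:**
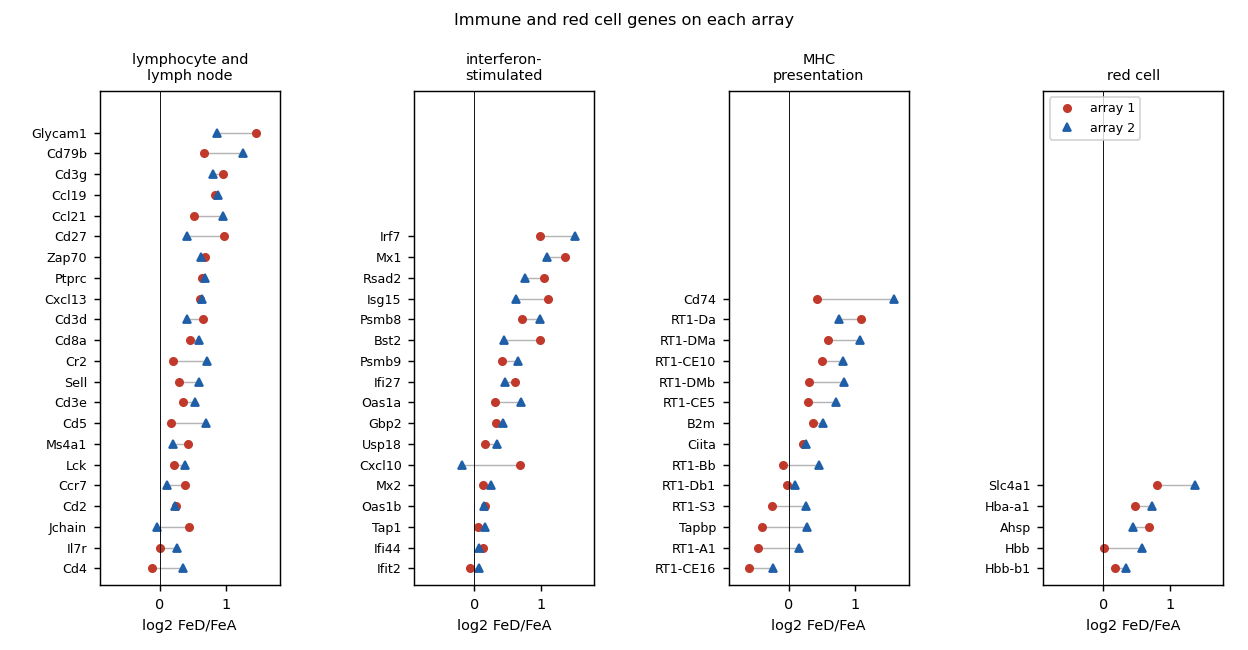
Log2 ratio of FeD over FeA on array 1 (red circles) and array 2 (blue triangles) for the genes reported here that passed in the lists of lymphocyte and lymph node, interferon-stimulated, MHC and red cell genes. Among the plotted genes both arrays lie right of 0 for 20 of 22 in the lymphocyte list and for 15 of 17 in the interferon list, beside 25.2% of all genes.

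Genes of the intestinal epithelium were the list with the most members on the lower side. Of 38 such markers 34 passed, and 31 were lower and 2 higher on both arrays (21.7% and 25.2% of all genes). At least 2-fold lower were 16, beside 0.242% of all genes, and the median was -0.93. The list was drawn up with earlier results of these data known. It includes genes that the study had listed as lower on these arrays, such as Fabp1, S100g and Prap1, so the counts only describe the list. These counts hold genes that passed only because FeA was bright: in 17 of the 34 FeD missed the background criterion on 1 or both arrays, and all 17 of these were lower on both arrays, 8 of them by 2-fold. In the remaining 17 genes, measured above background in both pools, 14 were lower and 2 higher on both arrays, 8 were at least 2-fold lower, and the median was -0.95. The summed signal of the 34 was 9430 and 10767 units in FeD and 22758 and 24569 in FeA, and Npc1l1, Slc5a1, Slc15a1 and Mep1a did not pass. S100g, the calcium-binding protein calbindin-D9k of absorptive cells, gave 205 and 216 units in FeD and 4296 and 4860 in FeA, the lowest mean ratio among genes that met the background criterion in both pools (-4.39 and -4.49). Prap1, a secreted protein of the gut lining, gave 115 and 151 in FeD and 1864 and 2057 in FeA (-4.02 and -3.77). Fabp1, a fatty acid binding protein of liver and small intestine, was at -4.68 and -3.74, and Apoa1, an apolipoprotein of both organs, at -3.17 and -2.71, and for each the FeD signal was well above background on 1 array. Fabp2, the intestinal fatty acid binding protein, was at least 6.77-fold lower, and Mogat2, an enzyme of fat absorption, at least 2.45-fold lower. The study followed up Fabp1, Fabp2 and Apoa1 by qRT-PCR and reported all of them as too low in pancreas to be detected. Their lower array ratios were thus not borne out by a second method.

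Genes of other gut cell types were lower as well. Tff3, a trefoil peptide of goblet cells, was at -1.95 and -2.25, Guca2a (guanylin) at -1.56 and -1.19 and Clca1, a secreted goblet cell protein, at -1.08 and -0.93, and Agr2, a disulfide isomerase of mucus-secreting cells, was at least 3.14-fold lower. Defa24, a Paneth cell defensin, was at -1.66 and -1.61, with the FeD signal well above background on 1 array. Tff1, the trefoil peptide of the stomach surface, was at -3.04 and -2.68, while Atp4a, the proton pump of parietal cells, was at 0.04 and 0.31, and Gkn1, Gkn2, Muc5ac, Atp4b and Cblif did not pass. Lgals4 (galectin-4) was at -2.21 and -2.14 over its 2 probes, Cdh17, a cadherin of the gut, at -1.70 and -1.53 (FeD well above background on 1 array) and Krt20, a keratin of gut epithelium, at -1.18 and -1.14. The probes of Alpi, intestinal alkaline phosphatase, disagreed, at -2.66 and -2.15 for the first and -0.12 and -0.56 for the second. Gsta5, a glutathione transferase of the alpha class, was at -3.53 and -2.69 and was the 1 member of the antioxidant list past 2-fold, with Gsta2 at -1.07 and -0.55 (FeD well above background on 1 array) and Gpx2, the gastrointestinal glutathione peroxidase, at -0.95 and -0.50. Gpx1, the widespread form, was at 0.71 and 0.66.

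Some smooth muscle and nerve genes were lower, and others were not. Actg2, the gamma actin of enteric smooth muscle, gave values of -1.56 and -1.25 over 2 probes. The 10 smooth muscle genes that passed had a median of -0.71 on array 1 and -0.11 on array 2, and 8 were lower on both arrays beside 21.7% of all genes, with a summed signal of 5686 and 6384 units in FeD and 10496 and 9448 in FeA. Tpm2, a tropomyosin, was at -1.01 and -0.48, and Acta2, the actin of vascular smooth muscle, at 0.48 and -0.52. Of 18 nerve genes that passed 5 were higher and 8 lower on both arrays, beside 25.2% and 21.7% of all genes. FeD missed the background criterion on 1 or both arrays in 6 of the 8 lower genes, and among the 12 genes that met it in both pools 5 were higher and 2 lower with a median of 0.01. Vip, a peptide of enteric neurons, was at least 1.74-fold lower. Gal (galanin) was at -0.76 and -0.69 on a probe measured in both pools, and its other probe was at least 1.71-fold lower. Calca, the precursor of the sensory peptide CGRP, was at -0.79 and -0.57 with FeD well above background on 1 array, whereas Npy, a peptide of sympathetic nerves, was at 0.82 and 0.74. The amount of gut tissue in each pool was not measured, and its part in the lower genes was not tested. In FeO against the same FeA pool the mean ratio of S100g was -4.77, of Fabp1 -4.47, of Prap1 -4.45, of Tff3 -2.38 and of Actg2 -0.53.

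**Figure D4:**
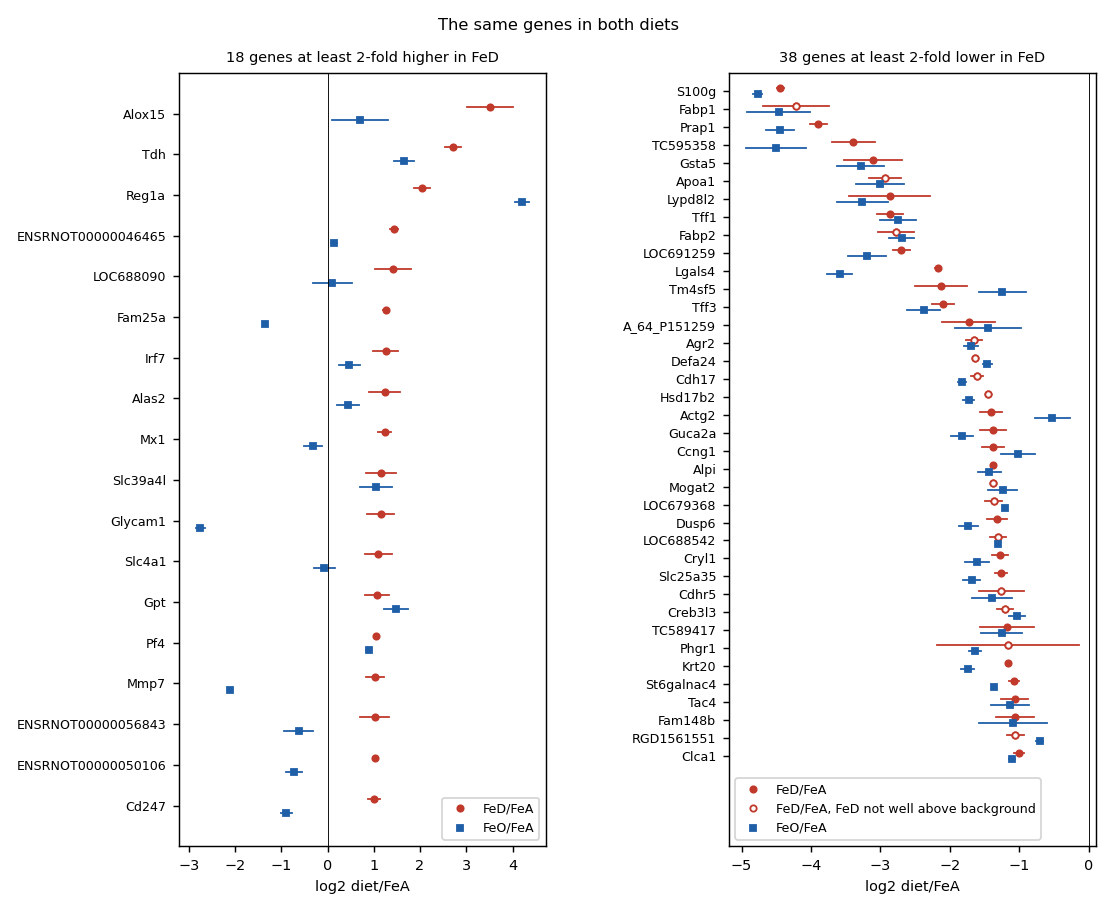
Log2 ratio of each diet over the same FeA pool for the 18 genes at least 2-fold higher (left) and the 38 at least 2-fold lower (right) in FeD, as the mean of both arrays (red circles FeD, blue squares FeO) with lines that span the arrays. Open circles are genes whose FeD signal was not well above background on 1 or both arrays; Glycam1 is at 1.15 in FeD and -2.75 in FeO, S100g at -4.44 and -4.77.

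Not all lower genes were gut markers. Dusp6, the phosphatase that turns off ERK and is itself induced by ERK signalling, gave 863 and 791 units in FeD and 1952 and 2183 in FeA on a probe of 10 spots, at -1.18 and -1.46 with an SD between spots of 0.10 and 0.11. Ccng1 (cyclin G1, a p53 target) was at -1.22 and -1.53, Cryl1, a dehydrogenase of gulonate, at -1.17 and -1.39, Slc25a35, a mitochondrial carrier, at -1.35 and -1.18 and St6galnac4, a sialyltransferase, at -1.01 and -1.14. These genes were called as lower on both arrays, so the side of their FeD signals is not a separate result. Further lower genes that met the background criterion in both pools were TC595358 (-3.70 and -3.08), Lypd8l2 (-3.46 and -2.28), LOC691259 (-2.82 and -2.58), Tm4sf5 (-2.50 and -1.75), A_64_P151259 (-2.12 and -1.34) and TC589417 (-0.79 and -1.56), and their mean ratios in FeO were also below -1. Of these, Tm4sf5 is a member of the intestinal list and is counted there. The other higher genes were Mmp7 (matrilysin, 1.23 and 0.83), Fam25a (1.19 and 1.34) and Slc39a4l (0.83 and 1.48), and in FeO their mean ratios were -2.11, -1.36 and 1.05. Higher too were ENSRNOT00000046465 (1.53 and 1.34), LOC688090 (1.03 and 1.8), ENSRNOT00000056843 (0.71 and 1.34) and ENSRNOT00000050106 (1.03 and 1.01), which are known here by an identifier only. Of the called genes, 18 on the higher side and 24 on the lower passed the background criterion on each array in FeD as well as in FeA, and 14 on the lower side did not.

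Islet genes leaned to the lower side by small amounts. Of 21 islet and beta cell genes that passed 11 were lower and 1 higher on both arrays, beside 21.7% and 25.2% of all genes. The median was -0.22, and none was past 1.5-fold, beside 0.68% of all genes lower and 1.08% higher by that size. Iapp (amylin, co-secreted with insulin) gave 1231 and 1190 units in FeD and 1862 and 1675 in FeA (-0.60 and -0.49). Ins1 was at -0.58 and -0.30 and Ins2 at -0.65 and -0.25, and probes of these near-identical insulin genes can share signal. Slc2a2, the glucose transporter of beta cells, was at -0.46 and -0.40 and Pdx1, their transcription factor, at -0.17 and -0.37. Gcg (glucagon) was at 0.34 and 0.08, Sst (somatostatin) at 0.04 and -0.48 and Ppy (pancreatic polypeptide) at -0.04 and 0.48.

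Among the exocrine genes 6 of 23 were higher and 2 lower on both arrays (25.2% and 21.7% of all genes), and the median was 0.12 (0.14 on array 1 and -0.07 on array 2). Ctrb1 (chymotrypsinogen B), the 1 member past 1.5-fold, was at 0.70 and 0.50 on a probe that was saturated in at least 1 channel, and Cela1 (an elastase) was at 0.68 and 0.39. Cpb1 (carboxypeptidase B) was at -0.13 and -0.33. The probes of Cela1 and Cpb1 were saturated in at least 1 channel as well, and a saturated spot does not give the full signal. Prss3, a trypsinogen, was at -0.17 and -0.91. Chaperones and stress genes of the endoplasmic reticulum, which folds these enzymes, had a median of -0.11 with 1 higher and 8 lower on both arrays of 20, beside 25.2% and 21.7% of all genes. Trib3, a pseudokinase of the integrated stress response, was at -1.13 and -0.54, Hspa5 (BiP) at -0.28 and -0.36 and Manf, a secreted stress factor, at -0.44 and -0.30. Chac1, the 1 gene higher on both arrays, was at 0.24 and 0.70. In 11 genes the arrays had opposite signs, among them Ddit3 at 0.54 and -0.31. The duct markers had a median of -0.02.

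The lists of fatty acid, cholesterol and fasting genes had medians between -0.02 and 0.05. In the list of fatty acid synthesis and adipocyte genes Fasn (fatty acid synthase) was at 0.51 and 0.91 and Scd, a desaturase with a di-iron centre, at 0.43 and 0.66, whereas the adipocyte genes Adipoq (adiponectin), Cfd (adipsin) and Retn (resistin) were at 0.17 and 0.26, -0.54 and -0.25, and -0.24 and -0.64. None of 19 cholesterol synthesis genes and none of 16 genes of fasting and fatty acid oxidation was past 1.5-fold. Over all genes 1.08% were higher and 0.68% lower by that size. In the circadian list, with a median of 0.12, 6 of 12 were higher and 1 lower on both arrays (25.2% and 21.7% of all genes), and Dbp, a clock output transcription factor, was at 0.75 and 0.84 over 3 probes. Of 16 zinc and copper genes 6 were higher and 6 lower on both arrays (25.2% and 21.7% of all genes), with a median of -0.11. Slc30a2 (ZnT2, which loads zinc into secretory granules) was at 0.65 and 1.07 and the metallothioneins Mt2A and Mt1 were at -0.67 and -0.46 and at -0.22 and -0.30, and in FeO the mean ratios were 1.32, -1.99 and -2.05.

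**Figure D5:**
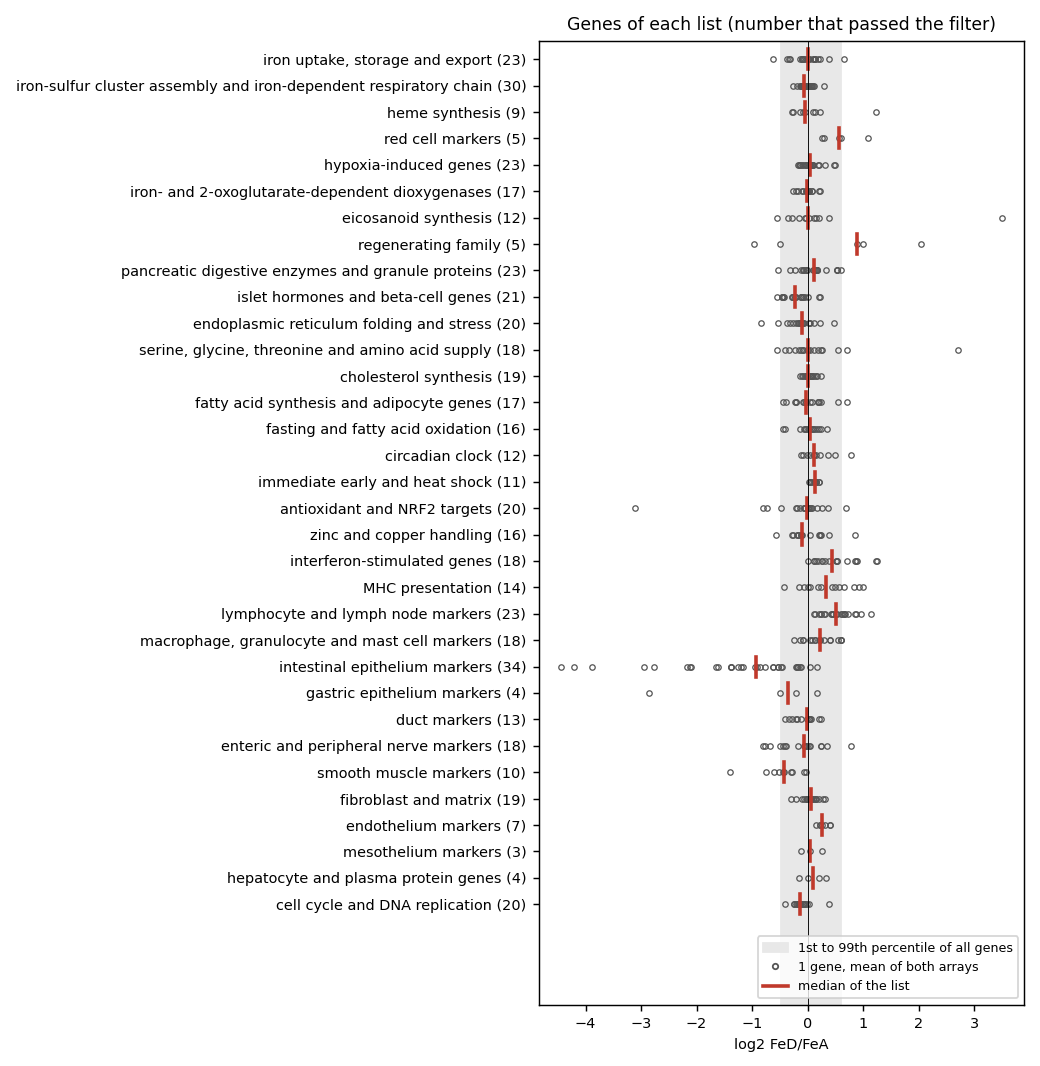
Log2 ratio of FeD over FeA (mean of both arrays) of every gene that passed in the 33 gene lists (circles), with the median of each list (red bar) and the range from the 1st to the 99th percentile of all genes (grey band, -0.49 to 0.60). The intestinal epithelium list has its median at -0.93 and the regenerating family at 0.89; Alox15 and Tdh stand apart from the other genes of their lists.

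The remaining lists had medians between -0.14 and 0.13. The cell cycle and DNA replication list had 1 gene higher and 7 lower on both arrays of 20 (6 of the 20 did not meet the background criterion in both pools) and a median of -0.14, the fibroblast and matrix list 4 and 4 of 19 with a median of 0.06, and the immediate early and heat shock list 5 and 0 of 11 with a median of 0.13. Over all genes that passed, 25.2% were higher and 21.7% lower on both arrays. Mcm4 and Mcm3, subunits of the same replicative helicase, were at -0.26 and -0.57 and at 0.37 and 0.39. Of the hepatocyte list 4 genes passed with a median of 0.11, and of the mesothelium list 3 with a median of 0.04.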

How the data were processed

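Per the labels and the study's methods, each pool combined RNA from 6 rats, and the FeD and FeA pools were hybridised on 2 Agilent arrays with the dyes swapped (FeD in Cy5 on array 1, Cy3 on array 2). The labels count the series' 4 arrays as slides 1 to 4, whereas the file headers carry the same slide and scan for all of them (1 slide, 1 scan). The intensity values were deposited by the authors as read with Agilent Feature Extraction 10.1.1.1, and median spot and background signals were used. The scanner's log10 ratio column, deposited by the authors, served as a check of direction. Median signals per channel were 115 to 222.5 units over a background of 55 to 87, and 61.9% to 71.5% of the 42877 spots were well above background. The number of arrays limits the precision.

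Background was corrected with normexp (offset 50) and ratios were loess normalized within arrays in R 4.3.3 with limma 3.58.1. Outlier spots (722 and 938) were left out, spots of a probe were averaged, and array 2 was turned. A probe was well above background when more than 50% of its spots were. A gene is the mean of its probes that passed, and it was called at a mean of 2-fold with the same sign on both arrays. The diets were not tested, and the methods' t-test, which compares the pools, was run only as an alternative. The authors' deposited tables of fold changes, p-values and q-values were used only for gene names. Probes were named through RefSeq accessions (18004), the authors' table (4945) or the array (7418). Python 3.11.15 with pandas 2.3.3 was used for tallies. On simulated data for this comparison (30367 probes, 200 changed) the slope of measured on true ratios was 0.77. Of changes of 1.5, 82.1% were past 1, and of changes of 3, 97.0% were. All changed probes had the right sign, and 0 unchanged probes were past 1. The changed probes were drawn from probes well above background in each channel. Log-scale noise had the same spread for all probes, without dye effects of single probes. These values therefore do not cover changed dim probes or such dye effects in the real calls.

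Members, lists and alternatives were chosen with earlier results of these data known. The counts of a list beside the share over all genes therefore only describe that list. Genes named were the 20 most extreme per direction well above background in both pools, the study's iron genes, up to 4 members or all at 2-fold per list, and bounds; others (Adgre1, Gbp2, Cd4, Ifit2, RT1-CE16, Hba-a3 and further members of lists) were chosen after their values were seen. A few genes that enter the counts, medians and sums are not reported here by name.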

Additional observations from a re-analysis of the deposited data

How the results depend on the processing

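Of 56 genes called at 2-fold (18 higher, 38 lower), all kept their sign under each alternative of processing that gave a value (10 for 42 genes, 9 for 14 lower genes that are left out when both pools must be above background), and 37 stayed past 2-fold in each (27 and 10). An offset of 0 gave 54 higher and 90 lower, and the scanner software's processed signals gave 137 and 143 (48.9% of called genes higher, beside 32.1%). Median centring gave 14 and 39. Requiring both pools well above background gave 18 and 25 lower genes. A limit of 4-fold gave 3 and 13, a limit of 1.5-fold gave 170 and 107, and 2-fold on each array gave 9 and 31. Leaving out array 1 or array 2 gave between 23 and 81 higher genes (81 without array 1, 23 without array 2) and between 39 and 47 lower genes. The methods' t-test treats the arrays as replicates of the pools: beside the size limit it left 17 and 35 genes, and after Benjamini-Hochberg adjustment 0 and 0, with 1086 of 17516 probes below 0.05 unadjusted and 1 after adjustment. The cause of these shifts was not tested. Of 33 list medians 18 kept their sign under all alternatives; the intestinal median ranged from -2.68 to -0.70, the lymphocyte median from 0.44 to 0.89, the interferon median from 0.28 to 0.63 and the smooth muscle median from -0.71 to -0.11. No paired analysis was possible because each diet is 1 pool and no result of the diets comes from a test. Signal over background limits ratios of dim probes to bounds.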

Other observations

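Further genes between 1.5-fold and 2-fold were picked for their values, and they say nothing of other genes of their kind. Higher examples were Coro1a, an actin regulator of white cells (0.92 and 0.98), Ptprcap, a partner of CD45 (0.64 and 0.99), Cxcr4, the receptor for CXCL12 (0.52 and 1.08), and Fcmr, the IgM receptor of B cells (0.69 and 1.03). The secreted defence proteins Slpi, a protease inhibitor, and Bpi, which binds bacterial endotoxin, were at 0.98 and 0.89 and at 0.65 and 0.96. Lower examples were Apoa4, an apolipoprotein of the small intestine (-0.83 and -1.07), Pyy (peptide YY, -0.62 and -0.70), Ghrl (ghrelin, -0.65 and -0.55) and Nr0b2, a nuclear receptor of bile acid control (-0.79 and -0.62). Etv5, a transcription factor induced by ERK signalling, was at -0.60 and -0.85 beside Dusp6. No test of these genes was made.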
